A study of Mus musculus with 9 samples.

Results

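The genes described here are 10 interferon-gamma-induced GTPases, the guanylate-binding proteins Gbp2, Gbp3, Gbp4, Gbp5, Gbp6 and Gbp7 and the immunity-related GTPases Igtp, Irgm1, Irgm2 and Iigp1. They were taken by gene symbol from a table of 18272 genes measured by RNA sequencing in the tibias of 9 female C57BL/6J mice, and 10 of 10 were found. The list was chosen by name with the expression values of these same libraries already known, so the levels and fold changes of the 10 genes are given as a description and are not used as evidence. The NGT group (normal glucose tolerance) held 3 mice given citrate vehicle and then saline. The T1D group held 3 mice made diabetic by 1 injection of streptozotocin, a toxin of pancreatic beta cells, and then given saline. The Lira group held 3 mice given the same injection and then 0.6 mg/kg/day of liraglutide, a drug that activates the receptor of the incretin GLP-1. The mice were bought at 10 to 11 weeks of age, injected after 1 week of acclimation and treated from 2 weeks later for 8 weeks, except that the label of Lira mouse 3 gives 9 weeks. Each library came from a different tibia, and the study chose the tibias at random from larger groups. The comparisons address what diabetes changed in bone and what liraglutide changed in diabetic bone.

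Interferon-gamma is made mainly by T cells and natural killer cells. It binds a receptor of the subunits Ifngr1 and Ifngr2, the kinases Jak1 and Jak2 pass the signal on, and it acts through GAS elements in promoters to induce Irf1 and many further genes. The GTPases studied here are among the most strongly induced of these genes in mouse macrophages and many other cells. The proteins gather on vacuoles that hold bacteria or parasites, help to break them open and promote inflammasome activation.

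Total counts ran from 13086373 to 16528394 per library. T1D mouse 1 stood apart in these data, with 476 of 13960 tested genes (3.41%) at over 2 times the level of every other library, and Lira mouse 3 held 440 such genes (3.15%), against 2 to 83 in each of the other 7 libraries. Genes of skeletal muscle took 12.8% of the counts in T1D mouse 1 and 16.4% to 24.3% in the other libraries, although the bones had been cleaned of muscle. Osteoblast markers were detected in every group, but Sp7, Bglap and Sost were at 0 counts in NGT mouse 2. The fold changes of the 10 genes below are therefore also given without T1D mouse 1. Levels are given as CPM, the count divided by the library size scaled by the TMM method and multiplied by 1000000, and 3 counts corresponded to 0.182 to 0.229 CPM on total counts. In whole tibia, more cells that express a gene and more RNA of that gene per cell cannot be told apart.

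The 10 genes took between 0.00964% and 0.0177% of the counts in 8 libraries and 0.235% in T1D mouse 1. Their summed level was 1888 CPM in T1D mouse 1 and 109 to 158 CPM in the other libraries. T1D mouse 1 held the highest value of 10 of 10 genes, and in 10 of 10 this value was over 2 times that of every other library, where 3.41% of all tested genes met the same condition. All 10 had at least 35 counts in every library and passed the filter on low counts without T1D mouse 1.

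**Figure D1:**
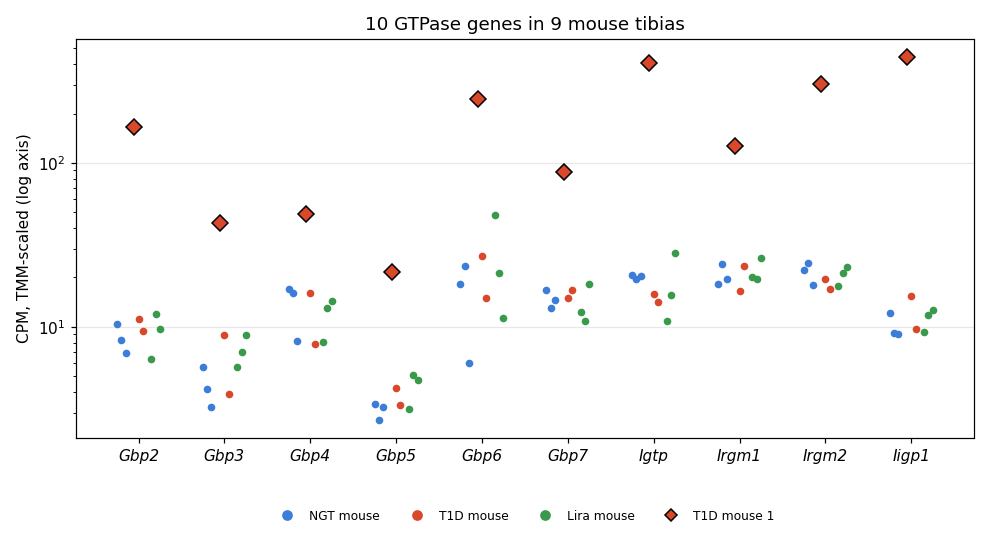
CPM of the 10 GTPase genes on a log axis, with 1 point per mouse, colored by group, and T1D mouse 1 drawn as a diamond. The diamond lies above the other 8 points of each gene, by 2.87 times for Gbp4 and 28.9 times for Iigp1.

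Among the immunity-related GTPases, Iigp1 (gene ID 60440), an effector that coats parasite vacuoles, showed the widest gap. Its level was 12.1, 9.20 and 9.03 CPM in NGT mice 1, 2 and 3, 443, 15.3 and 9.67 CPM in T1D mice 1, 2 and 3, and 9.28, 11.8 and 12.7 CPM in Lira mice 1, 2 and 3. T1D mouse 1 was 28.9 times above the next highest library, T1D mouse 2, and T1D mouse 3 lay inside the NGT range. Igtp (16145), a regulatory member of the family also known as Irgm3, was at 20.8, 19.6 and 20.4 CPM in the NGT mice, 405, 15.9 and 14.3 CPM in the T1D mice, and 10.8, 15.6 and 28.4 CPM in the Lira mice. T1D mice 2 and 3 were thus below all NGT mice for Igtp, whereas T1D mouse 1 was 14.3 times above Lira mouse 3, the next highest. Irgm2 (54396), another regulatory member, was at 22.3, 24.5 and 18.0 CPM in the NGT mice, 302, 19.5 and 17.01 CPM in the T1D mice, and 17.6, 21.3 and 23.0 CPM in the Lira mice. The 8 libraries other than T1D mouse 1 stayed within 1.44 times of each other for Irgm2, the narrowest range of the 10 genes. Irgm1 (15944), the regulatory member needed for defense against mycobacteria, was at 18.2, 24.1 and 19.6 CPM in the NGT mice, 126, 16.6 and 23.6 CPM in the T1D mice, and 20.1, 19.6 and 26.2 CPM in the Lira mice. Its excess in T1D mouse 1 over the next library was 4.80 times, the smallest among these 4 genes.

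Of the guanylate-binding proteins, Gbp2 (14469), which is recruited to parasite vacuoles, was at 10.5, 8.35 and 6.97 CPM in the NGT mice, 165, 11.2 and 9.47 CPM in the T1D mice, and 6.35, 12.0 and 9.70 CPM in the Lira mice. T1D mouse 1 was 13.8 times above the next library, Lira mouse 2. Gbp6 (100702) was the most variable gene outside T1D mouse 1. It was at 18.2, 23.4 and 6.02 CPM in the NGT mice, 246, 26.9 and 14.9 CPM in the T1D mice, and 48.3, 21.3 and 11.4 CPM in the Lira mice. The lowest of the 8 other libraries (NGT mouse 3) and the highest (Lira mouse 1) differed by 8.03 times, and T1D mouse 1 was a further 5.09 times above Lira mouse 1. Gbp5 (229898), which promotes assembly of the NLRP3 inflammasome, had the lowest levels. It was at 3.36, 2.71 and 3.25 CPM in the NGT mice, 21.5, 4.26 and 3.34 CPM in the T1D mice, and 3.14, 5.06 and 4.76 CPM in the Lira mice. Gbp7 (229900) was at 16.9, 13.1 and 14.6 CPM in the NGT mice, 88.0, 14.99 and 16.7 CPM in the T1D mice, and 12.4, 10.8 and 18.4 CPM in the Lira mice. Both genes were highest in T1D mouse 1, by 4.24 times for Gbp5 and 4.79 times for Gbp7, and the remaining libraries of the 3 groups overlapped. Gbp3 (55932) was at 5.71, 4.18 and 3.25 CPM in the NGT mice, 43.1, 8.91 and 3.87 CPM in the T1D mice, and 5.71, 7.01 and 8.90 CPM in the Lira mice. T1D mouse 1 was 4.84 times above T1D mouse 2. Gbp4 (17472) was at 16.9, 16.2 and 8.23 CPM in the NGT mice, 48.6, 16.04 and 7.80 CPM in the T1D mice, and 8.14, 13.1 and 14.4 CPM in the Lira mice. With 2.87 times the value of NGT mouse 1, the next highest, it had the smallest excess in T1D mouse 1. The lowest count behind these levels was 35 for Gbp5 in NGT mouse 2, or 2.42 CPM on the unscaled total (95% Clopper-Pearson interval 1.68 to 3.36), and for Iigp1 in T1D mouse 1 the level was 552 CPM on that scale (540 to 564). These intervals cover counting error only.

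Promoter sequences show what several of these genes share outside the expression values. The RefSeq promoter windows used here (GRCm38.p6, 250 bases before to 50 after the gene start) held 7 of the 10 genes, with 2 windows for Gbp3. The GAS motif was searched as TTCNNNGAA, which reads the same on both strands, and the interferon-stimulated response element (ISRE), the site of Irf1 and related factors, as GAAANNGAAA on both strands, so that a match on the opposite strand reads TTTCNNTTTC. An ISRE match stood in 7 of the 8 windows (87.5%), covering 7 of 7 genes, against 3.44% of all 32851 windows. A GAS match stood in 4 of the 8 windows (50%), those of Gbp5, Gbp7, Igtp and Irgm2, against 8.30% of all windows. These 4 held both motifs, as did 0.454% of all windows. A match is a description of the letters and not of a bound site. The expression files were made on build mm9, so the coordinates below are not those of the files. The following stretches lie before the gene start and are written 5′ to 3′ along the gene with the motif matches in capitals. Overlapping matches run together, as in Gbp3 and Irgm1. Not every match is shown.
Gbp2, chr3:142620589-142620628, plus strand: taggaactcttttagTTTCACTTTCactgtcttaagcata
Gbp3, chr3:142559984-142560029, plus strand: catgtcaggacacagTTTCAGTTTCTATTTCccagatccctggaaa
Gbp5, chr3:142496754-142496793, plus strand: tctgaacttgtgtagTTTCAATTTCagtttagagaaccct
Gbp5, chr3:142496867-142496905, plus strand: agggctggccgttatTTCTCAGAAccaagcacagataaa
Gbp7, chr3:142530215-142530307, plus strand: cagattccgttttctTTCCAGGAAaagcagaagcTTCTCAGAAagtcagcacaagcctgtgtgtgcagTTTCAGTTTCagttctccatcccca
Irgm1, chr11:48871421-48871465, minus strand: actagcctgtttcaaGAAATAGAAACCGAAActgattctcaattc

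In Igtp and Irgm2 a GAS match was followed by an ISRE match whose start lay 11 bases further on. This spacing was noticed after the sequences had been read. It occurred in 5 of the 32851 windows (0.0152%), those of Igtp, Irgm2, Tgtp1, Tgtp2 and Gm12185, of which the members and the listed GTPases Tgtp1 and Tgtp2 are shown to let the arrangement be compared.
Igtp, chr11:58199496-58199546, plus strand: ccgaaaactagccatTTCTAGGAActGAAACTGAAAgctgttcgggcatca
Irgm2, chr11:58214887-58214937, plus strand: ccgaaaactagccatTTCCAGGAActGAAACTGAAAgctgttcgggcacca
Tgtp1, chr11:48992299-48992349, minus strand: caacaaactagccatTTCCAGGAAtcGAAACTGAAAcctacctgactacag
Tgtp2, chr11:49064258-49064308, minus strand: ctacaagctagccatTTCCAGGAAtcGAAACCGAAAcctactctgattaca
Igtp and Irgm2 were identical at 49 of 51 positions and differed by T19C and T49C, counted from 1 at the 5′ end of the stretch with the base of Igtp first. Tgtp1 matched Igtp at 34 and Tgtp2 at 35 of the 51 positions. Of the 5 genes, 2 are members and 2 were listed with their levels known, so these levels are no evidence for the spacing. Gm12185, named after its values had been seen, was at 105 CPM there and at 0.714 to 2.73 CPM elsewhere.

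Levels of different genes were compared per transcript length, on the FPKM values of the authors. In the NGT mice the order of the means was Igtp, Irgm1, Irgm2, Gbp6, Gbp2, Iigp1, Gbp4, Gbp7, Gbp3 and Gbp5. Igtp stood at 9.95 ± 2.07 FPKM (SD, n = 3) and Gbp5 at 1.02 ± 0.277 FPKM (SD, n = 3). Of the 9 pairs of neighbors in this order, 3 differed by more than the larger SD of the pair, namely Irgm1 (9.34 FPKM) over Irgm2 (6.08 FPKM), Irgm2 over Gbp6 (3.72 FPKM) and Gbp7 (2.63 FPKM) over Gbp3 (1.71 FPKM). The other neighbors lay within their spread. In T1D mouse 1 the order was Igtp at 249 FPKM, Iigp1 at 187, Irgm2 at 106, Gbp2 at 83.3, Irgm1 at 72.2, Gbp6 at 71.8, Gbp3 at 20.4, Gbp7 at 19.3, Gbp4 at 13.4 and Gbp5 at 8.78 FPKM. Iigp1 was therefore in place 6 in the NGT mice and in place 2 in T1D mouse 1, and Irgm1 moved from place 2 to place 5. Igtp, Irgm2, Gbp7 and Gbp5 held the same place in both orders.

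**Figure D2:**
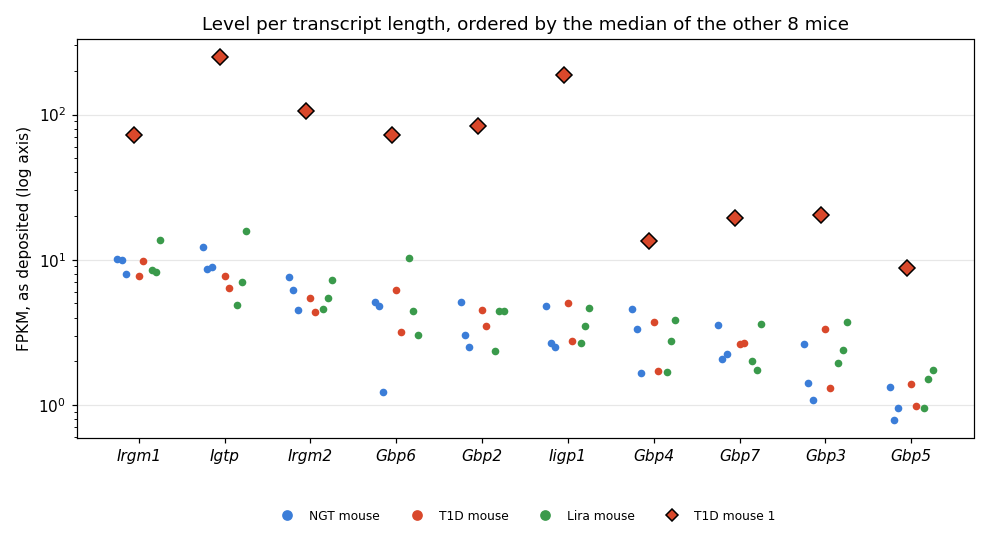
FPKM of the 10 genes on a log axis, 1 point per mouse, ordered by the median of the 8 libraries other than T1D mouse 1, which is drawn as a diamond. Igtp and Iigp1 are the highest in T1D mouse 1, at 249 and 187 FPKM, and Gbp5 is lowest in the median of the other libraries and in T1D mouse 1.

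In the comparison of T1D with NGT, no gene of 13960 passed the thresholds of the study (adjusted p below 0.05 and fold change above 2) in edgeR's quasi-likelihood test, so 0 of the 10 GTPases were called, where 0% of all genes were. The log2 fold change was above 0 for 10 of 10 genes and for 52.1% of all tested genes. Its median over the 10 was 2.24, and over all tested genes 0.02. Iigp1 had the largest value, 3.94 ± 1.31 (SE, n = 3 per group), from a mean of 10.1 ± 1.74 CPM (SD) in NGT to 156 ± 249 CPM (SD) in T1D, so that the SD of the T1D group exceeded its mean. The next were Gbp2 at 2.85 ± 1.02 (SE), Igtp at 2.84 ± 1.18 (SE) and Gbp6 at 2.60 ± 1.07 (SE), and Gbp4 was lowest at 0.81 ± 0.607 (SE). The adjusted p was 0.977 for each of the 10. An unadjusted p below 0.05 was reached by 7 of the 10 and by 552 of all tested genes (3.95%), and since the genes were chosen with this contrast known, nothing is read from that count. No gene of the 10 had every T1D mouse above every NGT mouse, a condition met by 3.52% of all tested genes.

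The fold changes of the T1D group rested on T1D mouse 1. When this mouse was left out, 6 of the 10 log2 fold changes remained above 0 and their median was 0.18, with all tested genes at -0.01. Iigp1 was then at 0.30 ± 0.277 (SE), Gbp2 at 0.26, Gbp3 at 0.54, Gbp5 at 0.29, Gbp6 at 0.40 and Gbp7 at 0.10. The sign turned for Igtp (-0.43 ± 0.369, SE), Irgm2 (-0.24), Gbp4 (-0.21) and Irgm1 (-0.04). None of the 10 then reached an unadjusted p below 0.05, and the lowest adjusted p among them was 0.9997 in edgeR. A further fit with all mice used the replicate number as a block, although the labels do not give a pairing. Its log2 fold changes ran from 0.63 for Gbp4 to 2.58 for Iigp1, with no gene called. In that fit Igtp was at 1.72 in place of 2.84 and Irgm2 at 1.48 in place of 2.39.

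**Figure D3:**
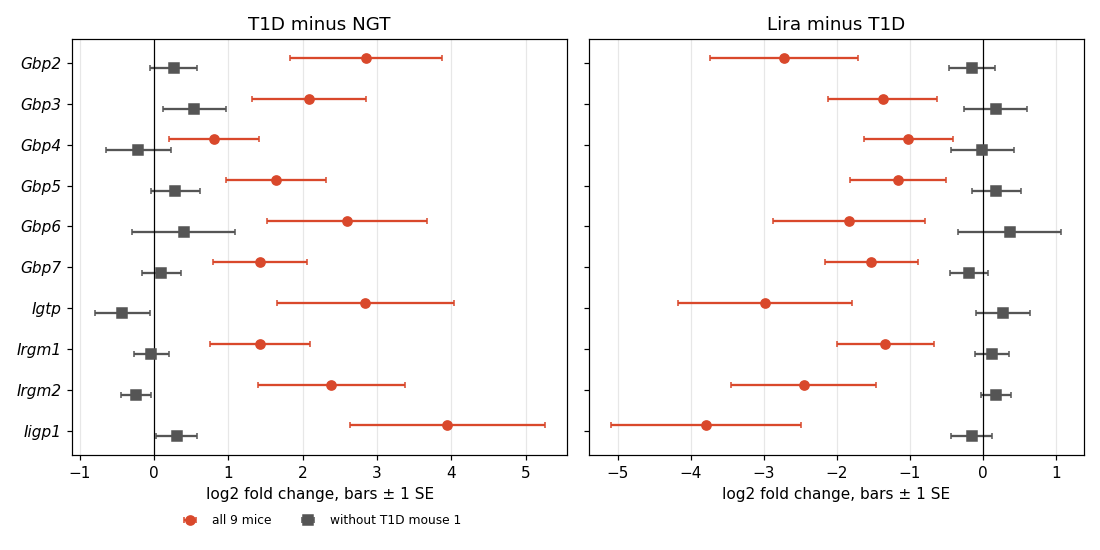
Log2 fold changes with bars of 1 SE for T1D minus NGT (left) and Lira minus T1D (right), with all 9 mice as circles and without T1D mouse 1 as squares. The circles run from 0.81 to 3.94 on the left and from -3.79 to -1.02 on the right, and the squares from -0.43 to 0.54 and from -0.19 to 0.37.

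In the comparison of Lira with T1D, which shares the T1D mice with the comparison above, again no gene passed the thresholds in edgeR (0% of 13960). An unadjusted p below 0.05 was reached by 465 genes (3.33%), among them 5 of the 10 GTPases. The log2 fold change was above 0 for 0 of the 10 and for 55.3% of all tested genes. The median was -1.68 for the 10 and 0.04 for all tested genes. Iigp1 was at -3.79 ± 1.30 (SE, n = 3 per group), Igtp at -2.99 ± 1.19 (SE), Gbp2 at -2.73 ± 1.01 (SE) and Irgm2 at -2.45, and the other 6 genes lay between -1.83 and -1.02. The adjusted p was 0.978 for each. No gene of the 10 had every Lira mouse below every T1D mouse, where 3.40% of all tested genes did. Without T1D mouse 1 the values ran from -0.19 for Gbp7 to 0.37 for Gbp6, and Gbp3, Gbp5, Gbp6, Igtp, Irgm1 and Irgm2 were above 0, at 0.17, 0.19, 0.37, 0.28, 0.13 and 0.18. Iigp1 was then at -0.15, Gbp2 at -0.14 and Gbp4 at -0.01. The median over the 10 was then 0.15, and 0 of the 10 reached an unadjusted p below 0.05. With all mice and the replicate block, the lowest unadjusted p of the 10 was 0.0858, for Gbp7 (edgeR).

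The Lira and NGT groups do not contain T1D mouse 1. The groups overlapped for 10 of 10 genes, as they did for 95.8% of all tested genes. The mean of Iigp1 was 11.2 ± 1.76 CPM in Lira and 10.1 ± 1.74 CPM in NGT (SD, n = 3 each). For Irgm2 the means were 20.6 ± 2.75 and 21.6 ± 3.33 CPM, and for Irgm1 22.0 ± 3.69 and 20.7 ± 3.09 CPM (SD, n = 3 each). Gbp3 was at 7.21 ± 1.60 CPM in Lira and 4.38 ± 1.25 CPM in NGT (SD, n = 3 each), the widest relative gap apart from Gbp6, whose Lira mean of 27.0 ± 19.1 CPM (SD, n = 3) rested on Lira mouse 1. With 3 mice against 3, an exact permutation test cannot go below a p of 0.1.

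Of 20 symbols of other interferon-inducible GTPases listed, 15 were in the table and 13 passed the count filter. T1D mouse 1 was highest for 12 of the 13 and over 2 times every other library for 10. Gm4841, the most abundant of them, was at 1104 CPM in T1D mouse 1 and at 16.4 to 59.7 CPM elsewhere. F830016B08Rik was at 175 CPM against 6.31 to 25.02 CPM, Tgtp2 at 120.5 against 3.25 to 13.03 CPM, and Tgtp1 at 45.1 against 2.06 to 5.49 CPM. Gbp10 was at 90.0 CPM in T1D mouse 1 and, like Gbp6, next highest in Lira mouse 1, at 29.6 CPM. Gbp9 (30.0 against at most 23.8 CPM) and Gvin1 (46.2 against at most 36.0 CPM) were less than 2 times above the next library, and 9930111J21Rik1 was at 1.69 CPM in T1D mouse 1 and 4.88 CPM in Lira mouse 3. The median log2 fold change of the 13 was 2.30 for T1D minus NGT and 0.28 without T1D mouse 1, and none was called. The symbols Gbp1, Gbp11, Irgb10, Mx1 and Mx2 were not found. This does not mean that no other symbol measured here stands for these genes.

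**Figure D4:**
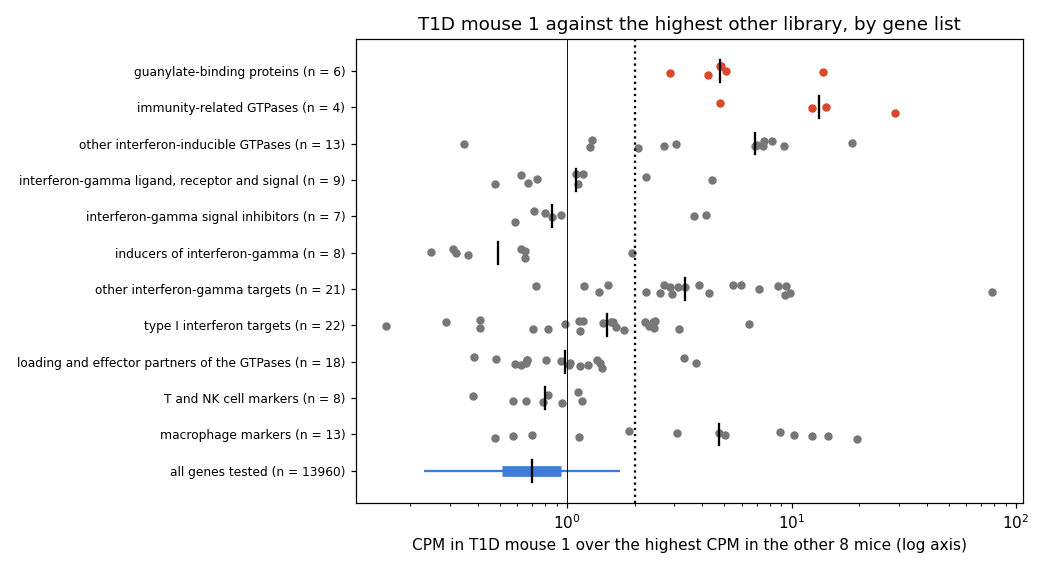
CPM in T1D mouse 1 divided by the highest CPM among the other 8 mice (log axis), 1 point per tested gene, with black bars for list medians and the dotted line at 2. The lowest row gives all 13960 tested genes (median 0.697, thick bar 25% to 75%, thin line 5% to 95%), and the medians of the guanylate-binding proteins and immunity-related GTPases are 4.82 and 13.3.

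Among the genes that carry the interferon-gamma signal, the ligand itself was near the floor. Ifng had 0, 0 and 0 counts in the NGT mice, 11, 1 and 1 in the T1D mice and 0, 1 and 0 in the Lira mice, and was left out by the count filter. The 11 counts of T1D mouse 1 have an exact 95% Poisson interval, limited on both sides, of 5.49 to 19.7 counts. For a count of 0, the upper 95% limit taken alone is about 3 counts. The receptor and kinase genes differed less between that mouse and the others. Ifngr1, the ligand-binding subunit, was at 63.1 CPM there and at 35.7 to 53.7 CPM elsewhere, Jak1 at 138 CPM against 138 to 205.5 CPM, and Jak2 at 42.1 against 49.6 to 67.4 CPM, so that Ifngr1 was highest and Jak2 lowest in that mouse, each by less than 2 times. Ifngr2, the accessory subunit, was at 97.4, 129 and 166 CPM in the NGT mice, 79.5, 89.1 and 87.5 CPM in the T1D mice and 70.9, 101.2 and 79.7 CPM in the Lira mice, so the T1D and NGT groups did not overlap, as was the case in either direction for 8.59% of all tested genes. Its log2 fold change was -0.61 ± 0.220 (SE) for T1D minus NGT and -0.57 without T1D mouse 1, and it was not called (adjusted p = 0.977, edgeR). Irf1, an interferon-induced factor that binds ISRE sites, was at 39.1 CPM in T1D mouse 1, against 5.42 to 17.5 CPM. Stat2, Irf9 and Irf8 were at 26.8, 33.4 and 23.9 CPM in T1D mouse 1 and at 24.5, 30.0 and 32.6 CPM in Lira mouse 3, so they did not separate these libraries as the GTPases did. Of the 9 tested genes of this group, 2 were over 2 times every other library in T1D mouse 1, 6 had a log2 fold change above 0 in T1D minus NGT and 3 below, and none was called.

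**Figure D5:**
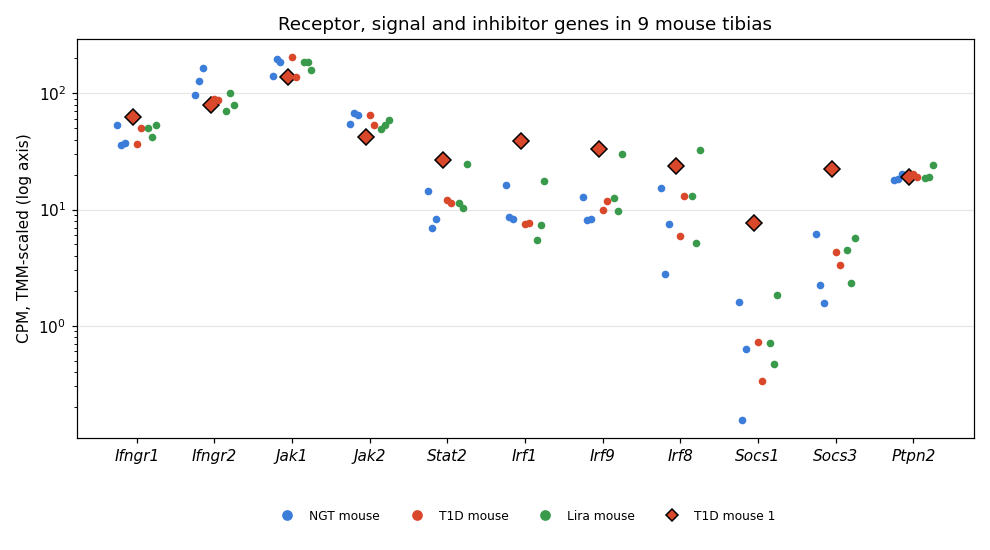
CPM of receptor (Ifngr1, Ifngr2), kinase (Jak1, Jak2), selected transcription factor (Stat2 to Irf8) and inhibitor (Socs1, Socs3, Ptpn2) genes on a log axis, 1 point per mouse, with T1D mouse 1 as a diamond. Of the genes drawn, the diamond is over 2 times every other point for Irf1, Socs1 and Socs3, and lies within or near the other points for the receptor and kinase genes.

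Of the 7 inhibitors of the signal, 2 were over 2 times every other library in T1D mouse 1. Socs1, a feedback inhibitor of Jak kinases that interferon-gamma induces, was at 7.61 CPM there and at 0.155 to 1.84 CPM elsewhere, and Socs3 at 22.5 against 1.58 to 6.16 CPM. The phosphatase gene Ptpn2 was at 19.0 CPM against 18.0 to 23.9 CPM. Ptpn6, Ptpn11, Pias1 and Usp18 were not highest in T1D mouse 1. The median log2 fold change of the 7 was 0.82 for T1D minus NGT, and -0.23 without T1D mouse 1, and none was called.

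Other known targets of interferon-gamma were also high in T1D mouse 1. This mouse was over 2 times every other library for 17 of 21 tested targets, and their median log2 fold change was 1.82 for T1D minus NGT and 0.03 without this mouse, with none called. B2m, the light chain of MHC class I, was at 1458 CPM in T1D mouse 1 and at 110 to 267 CPM elsewhere. The MHC class II genes Cd74 and H2-Aa were at 1133 and 521 CPM there, and at most at 158 and 59.6 CPM in another library. Of 22 targets of type I interferon, 7 were over 2 times every other library in T1D mouse 1 and 4 in Lira mouse 3. Lira mouse 3 held 0 such genes among the 10 GTPases and 0 among the 21 interferon-gamma targets. Rsad2, an antiviral enzyme and the most abundant gene of the type I list, was at 145 CPM in Lira mouse 3 and 22.7 CPM in T1D mouse 1, while Oasl2 was at 23.8 and 42.8 CPM and Ifi27l2a at 11.1 and 59.5 CPM in those mice. The lists share inducers in part, since many genes respond to both kinds of interferon.

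Genes that load the GTPases onto membranes or act with them were also examined. Of 18 tested partners, 2 were over 2 times every other library in T1D mouse 1 (3.41% of all tested genes) and 9 were highest there (20.7% of all tested genes), and the median log2 fold change was 0.12 for T1D minus NGT. The adaptor Sqstm1 was at 467 CPM in T1D mouse 1 and at 380 to 749 CPM elsewhere. Among genes of the Atg8 family, Map1lc3b was at 154 CPM against 139 to 263 CPM, and Gabarap at 292 against 172 to 205 CPM. Of 8 tested inducers of interferon-gamma, 0 were over 2 times every other library in T1D mouse 1, but 3 of the 4 inducers that the count filter left out (Il27, Il12rb1 and Il12b) were. Il15 was at 8.37 CPM there against 4.19 to 12.9 CPM.

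Markers of cell types that make or respond to interferon-gamma were examined beside these values. The 13 tested macrophage markers summed to 1116 CPM in T1D mouse 1, to 129 and 176 CPM in the other T1D mice, to 94.4 to 193 CPM in the NGT mice and to 154 to 230 CPM in the Lira mice. T1D mouse 1 was highest for 10 of these 13 and over 2 times every other library for 8. The complement gene C1qa was at 229 CPM against at most 22.4 CPM and C1qb at 242.5 against at most 16.6 CPM. Markers not highest there included Cd163 (9.19 CPM against 7.99 to 13.1 CPM) and Vcam1 (26.3 against 4.10 to 45.9 CPM). Most macrophage markers and the GTPases were thus high in the same mouse, and the part of these markers in the result was not tested. The 8 tested T and NK cell markers summed to 23.8 CPM in T1D mouse 1, to 36.9 CPM in Lira mouse 3, and to 1.32 to 16.4 CPM in the other libraries. T1D mouse 1 was over 2 times every other library for 0 of these 8. Of the 7 markers of this list that the count filter left out, 2 were highest in T1D mouse 1 and 5 in Lira mouse 3. Gzmb had 34 counts in T1D mouse 1 and at most 6 elsewhere, and Klrb1c had 39 in Lira mouse 3 and 5 in T1D mouse 1. Cd3e, Cd3g, Cd4 and 6 further markers of the 15 in the table were at 0 counts in NGT mouse 2. Osteoblast markers summed to 5845 CPM in T1D mouse 1 and to 211 to 1469 CPM elsewhere, with 4 of 12 markers over 2 times every other library and Col1a1 alone at 3208 CPM in that mouse. Osteoclast markers summed to 469 CPM against 90.6 to 429 CPM. Neutrophil and erythroid markers were highest in Lira mouse 3, at 5742 and 29450 CPM, and stood at 1461 and 2004 CPM in T1D mouse 1. The part of these differences in tissue make-up was not tested.

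The genes whose pattern over the 9 libraries was most like the mean of the 10 GTPases were Itm2b (Pearson r = 0.981), Clptm1l (0.978), Cxcl9 (0.975), Cfb (0.971) and Tgtp2 (0.971). Cxcl9, a chemokine for activated T cells, was at 194 CPM in T1D mouse 1 and at most at 2.48 CPM elsewhere, and Cfb, complement factor B, at 149 against at most 10.9 CPM. Itm2b was at 669 CPM in that mouse and at 276 to 351 CPM elsewhere, and Clptm1l at 61.3 against 40.01 to 43.3 CPM. These values of r describe 9 libraries that share the gap between T1D mouse 1 and the rest. In the other 8 libraries r ran from 0.45 for Cfb to 0.83 for Tgtp2. Among the 10 GTPases themselves, the 45 pairwise r ranged from 0.71 to 0.99 over 9 libraries (median 0.91). Without T1D mouse 1 they ranged from -0.68 to 0.86 (median 0.26), with 36 of 45 above 0. Gbp6 and Gbp10 kept an r of 0.96 over the 8 libraries. Both had estimated counts that were not whole in 9 of 9 libraries. The part of reads divided among similar genes in this r was not tested.

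Several of these genes have near-identical copies. The estimated counts were not whole numbers in 9 of 9 libraries for 9 of the 10 genes, and in 5 of 9 for Gbp2, and tools that divide reads among matching genes give such counts. The level of a single member is therefore uncertain relative to its closest copies.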

How the data were processed

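RNA of 9 tibias, 3 each of NGT, T1D and Lira mice, was sequenced. Per the labels the reads were aligned to genome build mm9. The aligner and counting tool are not given in the sources used here. The authors deposited 1 table with estimated counts (expected counts) per gene, not normalized, of which 30.2% were not whole (tolerance 0.001), and expression values that the header does not name and that behaved as FPKM, scaled by gene length and library size, computed by the authors. Mean columns of the authors were not used. Counts were rounded here and genes were kept that reached 10 counts in 3 or more libraries (13960 of 18272). Then edgeR 4.0.16 (TMM, quasi-likelihood test, Benjamini-Hochberg adjustment over all tested genes) was fitted to the 9 libraries in R 4.3.3. The SE of an edgeR log2 fold change was its absolute value over the square root of the quasi-likelihood F. It therefore rests on the spread estimated by that fit. DESeq2 1.42.0 and limma 3.58.1 (pseudocount 1) served as alternatives. Correlations used log2 CPM with a prior count of 2. On simulated counts for T1D against NGT, 105 of 200 genes changed 4-fold and 176 of 200 changed 16-fold were called, with 3 and 4 false calls, among 13960 genes. In the simulation all 3 T1D libraries of a changed gene moved alike. These shares therefore do not apply to a rise in T1D mouse 1 alone.

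The 10 members and the gene lists were chosen with earlier results of these data known. Every member is named. Further names were taken from the tested other GTPases, signal genes and inhibitors, the 3 most abundant genes of each other list and the 5 genes most like the members, but not every gene that this rule allows is named. Cd3e, Cd3g, Cd4, Cd163, Vcam1, Sp7, Bglap, Sost, Gm12185 and the genes left out by the count filter were named after their values were seen. Deviations of same-numbered NGT and T1D libraries from their group means correlated at 0.583, 0.647 and 0.283 (unlike numbers -0.697 to 0.067). For T1D and Lira they correlated at -0.244, 0.615 and 0.271 (unlike numbers -0.698 to 0.412). The labels do not say what the numbers share, so a pairing is not established. The block fit over the 9 libraries uses these numbers for the Lira mice as well. A few single genes are left out of the text.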

Additional observations from a re-analysis of the deposited data

Results flagged for a closer look

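The count filter left out 10 genes of the interferon lists, which lie outside the tests above. Of these, 7 were highest in T1D mouse 1 with at least 10 counts and over 3 times the highest NGT count. Cxcl10, a chemokine that interferon-gamma induces, had 365 counts in T1D mouse 1 and at most 7 in any other library. Gbp2b, a further guanylate-binding protein gene, had 261 counts there and at most 3 elsewhere. Batf2 had 100 counts against at most 7, and 9930111J21Rik2, a gene of the immunity-related GTPase type, had 39 against at most 8. The interferon-gamma inducers Il27 and Il12rb1 had 25 and 18 counts against at most 8 and 4. Ifng had 11 counts in T1D mouse 1 and at most 1 elsewhere. Over all 4312 genes left out by the filter, 194 (4.499%) met the same condition with T1D mouse 1 highest. Of the other 3 listed genes, Il12b had 9 counts in T1D mouse 1 and 0 elsewhere, while Eomes and Ido1 were highest in Lira mice. These are counts of single libraries with no replicate.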

How the results depend on the processing

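The calls did not depend on the settings in edgeR or limma, where 0 genes passed in both comparisons with library size in place of TMM, without the count filter, with only the compared groups, with log2(CPM + 1) or log2(FPKM + 1), or with the replicate block, and the block changed no other call. DESeq2 called 0 genes for T1D against NGT and 1 for Lira against T1D, which was none of the 10 GTPases. DESeq2 gave no p for Igtp, Irgm2, Gbp2 and Iigp1 in either comparison, so these 4 could not be called by it. Over the 80 values per comparison from settings that kept every mouse (among them the block with only the compared groups, chosen after seeing the data), 80 and 80 kept their direction, as did 50 and 50 when a mouse other than T1D mouse 1 was left out. The size did depend on the setting. For T1D against NGT the median log2 fold change of the 10 was 2.24 in edgeR, 1.59 with the block, 1.13 in limma on log2(CPM + 1) and 1.08 with the block and only the compared groups, and for Lira against T1D it was -1.68, -1.18, -1.01 and -0.98. Iigp1 had the largest value against NGT, at 3.94, 2.58, 1.95 and 1.86. Leaving out 1 mouse at a time, the number of GTPases above 0 ran from 6 to 10 for T1D against NGT and from 0 to 6 for Lira against T1D, and the 6 came in both from leaving out T1D mouse 1. For the genes whose sign turned without T1D mouse 1, the log2 fold changes over the mice left out ran, for T1D against NGT, from -0.21 to 1.23 (Gbp4), -0.43 to 3.38 (Igtp), -0.04 to 1.86 (Irgm1) and -0.24 to 2.90 (Irgm2). For Lira against T1D they ran from -1.85 to 0.17 (Gbp3), -1.57 to 0.19 (Gbp5), -2.56 to 0.37 (Gbp6), -3.53 to 0.28 (Igtp), -1.78 to 0.13 (Irgm1) and -2.97 to 0.18 (Irgm2). The end of each range that lies across 0 is the value without T1D mouse 1. With 3 mice per group, 1 such library sets both comparisons, and the cause of its values was not tested.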
